A study of Mus musculus with 2 samples.

Results

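Glycinergic neurons that send axons from the mouse hindbrain to the lumbar spinal cord were selected on their own transcripts from 713 sequenced nuclei. A nucleus counted as glycinergic when Gad1, Gad2, Slc32a1 and Slc6a5 made up at least 75% of its 3 or more transmitter UMIs (unique molecular identifiers, the counted RNA molecules), with Slc17a6, Slc17a7 and Slc17a8 making up the rest. It also had to hold at least 2 Slc6a5 UMIs, fewer than 5 Tph2 UMIs and fewer than 20 UMIs of the liver genes Alb, Cps1 and Apob. This gave 98 glycinergic nuclei, 20 of 425 in the library labelled Hot water bath and 78 of 288 in the library labelled SNI with brush. They were set against 61 other inhibitory nuclei, which met the same transmitter share with at most 1 Slc6a5 UMI (36 and 25 in the same order of libraries, used throughout), and against 376 glutamatergic nuclei (253 and 123).

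Both libraries came from TRAP2 mice of 8 to 12 weeks. TRAP2 is a knock-in line that places an inducible Cre recombinase under the Fos gene and so reaches cells that were active in a chosen time window. All animals carried AAV-retro-H2B-GFP, a retrograde virus coding for nuclear GFP, injected in the lumbar cord, and sorting took nuclei of descending neurons activated by a painful condition, a hot water bath in one library and the condition labelled SNI with brush in the other. Hindbrain tissue between about 7.3 and 5.2 mm behind bregma was pooled over the animals of a treatment, and each pool gave 1 10x Genomics 3' v3 single-nucleus library. The number of animals in a pool is not given in the labels, and nuclei of 1 pool are not replicates.

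Inhibitory neurons of the brainstem and cord use GABA, glycine or both. Glycinergic neurons take up glycine at their terminals with the transporter encoded by Slc6a5 (GlyT2), and load it into synaptic vesicles with the carrier encoded by Slc32a1 (VIAAT), which also carries GABA. GABA is made by the enzymes encoded by Gad1 and Gad2. Glycinergic cells with descending axons are known from the medullary reticular formation, where such cells inhibit spinal motor and sensory circuits. In development they arise from several progenitor domains, marked by factors such as Pax2, Pax8, Lhx1 and Lhx5 in dorsal and V1-type inhibitory lineages and Gata2, Gata3 and Tal1 in the V2b lineage.

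The 20 and 78 glycinergic nuclei held 751584 and 2996695 UMIs in all, with medians of 35323 and 33031.5 per nucleus. The lowest and highest nuclei held 15935 and 62653 UMIs after the hot water bath and 10953 and 117868 with SNI with brush. Median depth was 30683 and 19630 UMIs in other inhibitory nuclei and 38997 and 37372 in glutamatergic nuclei. The median mitochondrial UMI share per nucleus was lower in the hot water bath library, at 0.0861% against 0.361% in glycinergic nuclei, 0.0751% against 0.456% in other inhibitory nuclei and 0.0628% against 0.198% in glutamatergic nuclei. Over the summed UMIs of a class, which weight deep nuclei more, the mitochondrial share was 0.626% and 0.627% in glycinergic, 0.177% and 0.929% in other inhibitory and 0.102% and 0.381% in glutamatergic nuclei. The libraries shared 0 cell barcodes. Ttr, a gene of liver and choroid plexus, separated the libraries in every class and stood at 5.32 and 238 CPM (UMIs scaled to the total of the class in that library) in glycinergic nuclei, 222 CPM in SNI with brush glutamatergic nuclei and 295 CPM in other inhibitory nuclei of that library.

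The glycinergic share was 4.71% of the hot water bath library (exact Clopper-Pearson 95% interval 2.90 to 7.17%) and 27.1% of the SNI with brush library (22.0 to 32.6%). These and all other intervals cover counting error only. With 1 pool for each treatment, pool, dissection, sort and treatment cannot be told apart, and no test of the difference was possible.

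Slc6a5 (ENSMUSG00000039728, chr7:49910146-49963856, mm10) chose the nuclei, so its levels describe the choice. It stood at 206 CPM in hot water bath and 270 CPM in SNI with brush glycinergic nuclei. The lowest, median and highest nuclei held 3, 6.5 and 22 UMIs after the hot water bath and 2, 8.5 and 49 with SNI with brush. Glutamatergic nuclei, which should lack the gene, had a Slc6a5 UMI in 7.11% and 13.8% of nuclei at 1.86 and 3.52 CPM. Around the threshold, inhibitory nuclei with 1, 2 and 3 Slc6a5 UMIs numbered 1, 0 and 3 of 56 after the hot water bath and 6, 6 and 2 of 103 with SNI with brush. The inhibitory share of transmitter UMIs was 100% in 17 of 20 and 64 of 78 glycinergic nuclei and no lower than 92.3% and 84.6%.

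Most glycinergic nuclei also held Gad transcripts. Slc32a1 (ENSMUSG00000037771, chromosome 2) was seen in 18 of 20 and 77 of 78 nuclei, at 104 and 134 CPM, and its level in other inhibitory nuclei was 43.0 and 163 CPM. Gad1 stood at 136 and 91.4 CPM in glycinergic nuclei and at 67.3 and 156 CPM in other inhibitory nuclei, and Gad2 stood at 243 and 174 CPM against 376 and 376 CPM. At least 1 Gad1 or Gad2 UMI was found in 88 of the 98 nuclei, 90% of the hot water bath and 89.7% of the SNI with brush nuclei, and both genes were found in 72. The 10 nuclei with no Gad UMI were not shallow: their median was 41474.5 UMIs against 34233.5 over all 98. A UMI of a vesicular glutamate transporter was present in 17 of 98.

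**Figure D1:**
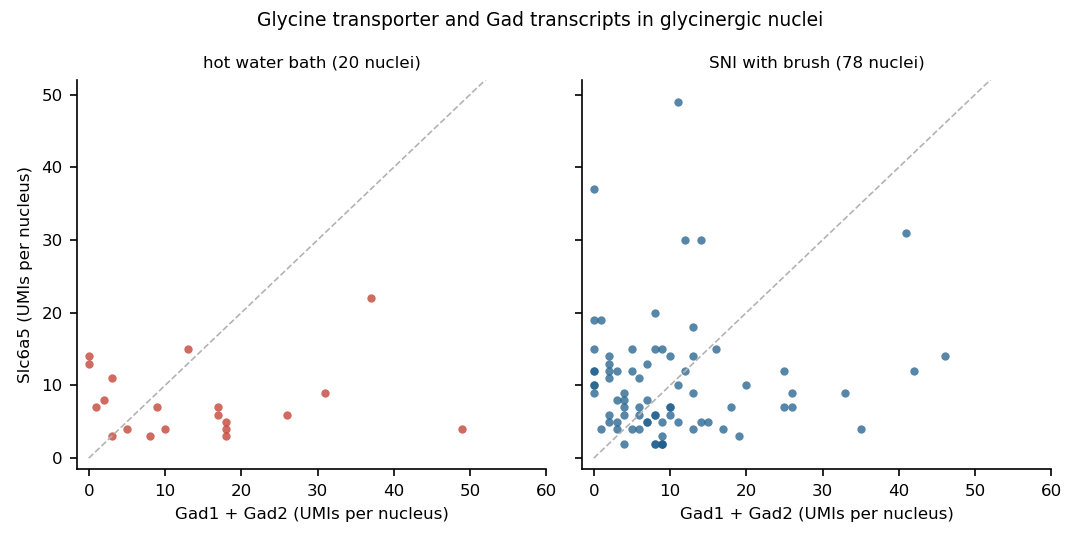
Slc6a5 UMIs (vertical axis) against Gad1 plus Gad2 UMIs (horizontal axis) in each glycinergic nucleus, with 1 panel for each library and a dashed line of equal counts. Nuclei lie from 0 Gad UMIs upward in both libraries, and 10 of the 98 sit at 0 on the horizontal axis.

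Other genes of glycine and GABA handling did not pass the test in either comparison, in which edgeR's quasi-likelihood test was used and a gene was called at a Benjamini-Hochberg adjusted p under 0.05. Over all genes tested, 0.465% were called in either direction against other inhibitory nuclei and 0.423% against glutamatergic nuclei, and 9.51% and 5.81% had an unadjusted p under 0.05. None of 7 tested glycine handling genes outside the rule and none of 4 GABA handling genes was called against other inhibitory nuclei, with 1 and 1 at an unadjusted p under 0.05. Against glutamatergic nuclei none of 9 and 4 was called, with 0 and 1 at an unadjusted p under 0.05, and DESeq2 called none in either comparison. Slc6a9, the glycine transporter better known from glia, stood at 9.31 and 15.4 CPM in glycinergic nuclei, 6.49 and 12.8 CPM in other inhibitory nuclei and 11.5 and 12.7 CPM in glutamatergic nuclei. Slc38a2, a neutral amino acid carrier, stood at 86.5 and 177 CPM against 73.8 and 190 CPM in other inhibitory nuclei. Abat, the enzyme that breaks down GABA, stood at 153 and 180 CPM in glycinergic nuclei.

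A noncoding transcript beside the vesicular carrier gene was found mainly in inhibitory nuclei. Gm14204 (ENSMUSG00000086496, chr2:158595472-158610723, minus strand, mm10) starts 44 bases from the start of Slc32a1 and runs the other way, with no overlap between the genes. It was chosen after its values had been seen. It stood at 45.2 and 42.4 CPM in glycinergic nuclei, 34.9 and 36.7 CPM in other inhibitory nuclei and 0.196 and 0.176 CPM in glutamatergic nuclei. A UMI was found in 79 of 98 glycinergic nuclei and in 3 of 376 glutamatergic nuclei. Of the 79, 76 also held Slc32a1, a gene of the rule that was found in 95 of all 98. The log2 ratio over glutamatergic nuclei was 7.56 (SE 0.41, edgeR adjusted p = 1.5e-07), and over other inhibitory nuclei it was 0.29 (edgeR adjusted p = 0.83).

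Head-to-head pairs of this kind are shown with the 250 bases before the RefSeq start of Slc32a1 and of Lhx1, the pair of starts that lie near a called transcript without overlapping it. The windows come from RefSeq (GRCm38.p6), read along the strand of the named gene, and capitals mark the bases between its start and the annotated start of the opposite transcript. Slc32a1 lies at chr2:158610508-158610757 on the plus strand, with 34 capitals, and Lhx1 at chr11:84525535-84525784 on the minus strand, with 125 capitals.
Slc32a1: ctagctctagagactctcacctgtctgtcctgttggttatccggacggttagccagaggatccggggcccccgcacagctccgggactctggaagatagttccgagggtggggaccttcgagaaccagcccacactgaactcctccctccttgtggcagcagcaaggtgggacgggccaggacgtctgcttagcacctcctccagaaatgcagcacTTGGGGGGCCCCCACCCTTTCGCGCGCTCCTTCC
Lhx1: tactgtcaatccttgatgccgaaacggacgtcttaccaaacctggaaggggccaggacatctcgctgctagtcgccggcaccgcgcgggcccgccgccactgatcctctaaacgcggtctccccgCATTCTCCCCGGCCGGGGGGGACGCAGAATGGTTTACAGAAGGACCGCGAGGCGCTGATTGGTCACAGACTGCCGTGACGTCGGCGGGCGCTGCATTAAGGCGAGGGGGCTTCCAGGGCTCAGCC
The Slc32a1 window holds 62.4% G and C, at percentile 77.5 of 32851 promoter windows, and the Lhx1 window 64.8%, at percentile 82.3, where the median window holds 52.4%.

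Further transcripts near inhibitory genes were also called over glutamatergic nuclei. Lhx1os (chr11:84525660-84535831) starts 125 bases from Lhx1 and stood at 14.6 and 32.0 CPM in glycinergic and 1.77 and 10.0 CPM in glutamatergic nuclei (log2 ratio 2.05, SE 0.38, edgeR adjusted p = 0.023). Erich2 lies 12187 bases from Gad1 and had a log2 ratio of 4.96 (SE 0.65, edgeR adjusted p = 0.0015). Erich2 lies within Gad1os on the other strand, the other 3 overlap the gene they accompany, and the sources used here do not say whether counting used strand, so reads of such pairs cannot be told apart. Gad1os overlaps Gad1, a gene of the rule, by 10286 bases and stood at 19.96 and 16.4 CPM against 0.0981 and 0.352 CPM in glutamatergic nuclei. Gm13415, inside Pax8 over 35182 bases, had a log2 ratio of 5.21, and Gm27199, which shares 69 bases with Lhx5, had 3.33. None of the 6 was called against other inhibitory nuclei.

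**Figure D2:**
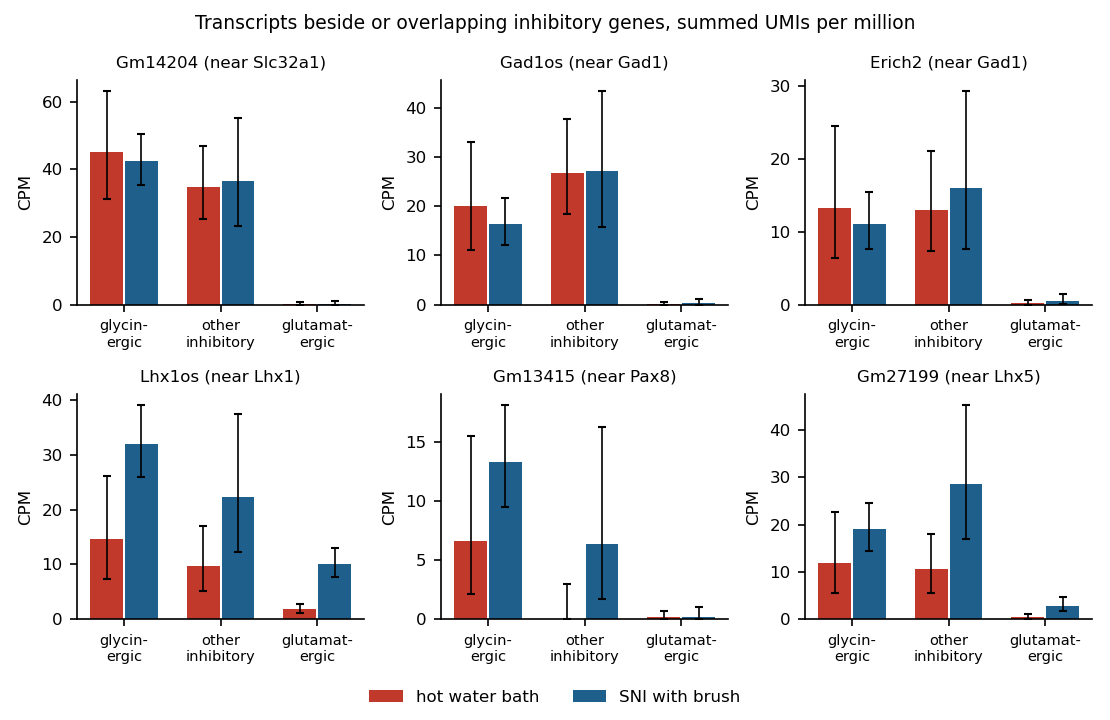
Level in CPM (vertical axis) of the 6 transcripts beside or overlapping inhibitory genes, by class of nuclei and library. Bars are class sums with exact Poisson 95% intervals, and bars of glutamatergic nuclei lie below those of glycinergic nuclei in every panel, at 0.196 and 0.176 CPM for Gm14204. Gm13415 was at 0 in hot water bath other inhibitory nuclei.

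Which genes set glycinergic nuclei apart from inhibitory nuclei without the glycine transporter was asked first. Of 16789 genes tested, 39 (0.232%) were higher and 39 (0.232%) lower in glycinergic nuclei (edgeR, adjusted p under 0.05). The genes with the largest ratios that passed the naming rule included Lamp5, Hs6st3, Sema3a, Col4a5 and Lgr5 on the higher side. On the lower side were the peptide genes Gcg and Adcyap1 with Reln and Cfap54. The calls of Adcyap1, Reln and Cfap54 depended on the choice of other inhibitory nuclei, as given below. P-values rest on 2 libraries that differ in treatment, so their spread includes treatment.

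Hs6st3 (ENSMUSG00000053465, chr14:119138341-119869815), a sulfotransferase that modifies heparan sulfate chains, was abundant in nearly every glycinergic nucleus. It stood at 1684 and 1597 CPM, against 168 and 343 CPM in other inhibitory nuclei and 1173 and 1126 CPM in glutamatergic nuclei. Both other inhibitory sums lay below every sum of the other classes. A UMI was seen in 19 of 20 and 76 of 78 glycinergic nuclei, and the log2 ratio over other inhibitory nuclei was 2.75 (SE 0.28, edgeR adjusted p = 0.0004).

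Lamp5 (ENSMUSG00000027270, chr2:136052239-136069917), a membrane protein of GABAergic terminals, was higher in glycinergic nuclei than in either other class. Its level was 91.8 and 171 CPM in glycinergic nuclei, 8.93 and 33.5 CPM in other inhibitory nuclei and 5.30 and 26.2 CPM in glutamatergic nuclei. The lowest glycinergic sum lay above the highest sum of the other classes. Lamp5 was seen in 92 of 98 glycinergic nuclei. After thinning every nucleus to 10000 UMIs it was seen in 55.0% and 79.5% of glycinergic, 8.33% and 25% of other inhibitory and 5.14% and 15.6% of glutamatergic nuclei. The log2 ratio was 2.78 over other inhibitory (SE 0.36, edgeR adjusted p = 0.0096) and 3.20 over glutamatergic nuclei (SE 0.29, edgeR adjusted p = 0.00091).

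Other genes on the higher side included a guidance cue, a receptor and a splicing regulator. Sema3a, a secreted guidance cue, stood at 173 and 99.8 CPM against 30.8 and 30.3 CPM in other inhibitory nuclei (log2 ratio 2.12, SE 0.24, edgeR adjusted p = 0.00086). Lgr5, a receptor that strengthens Wnt signals, stood at 71.8 and 73.7 CPM against 15.4 and 15.9 CPM (log2 ratio 2.24, SE 0.27). Rbm20, a splicing regulator best known from the heart, stood at 47.9 and 62.7 CPM against 5.68 and 11.2 CPM (log2 ratio 2.76, SE 0.33). In these 3 genes the glycinergic sums lay above the other inhibitory sums in both libraries, and the naming rule requires such agreement. The Lgr5 levels of the 2 libraries lay close together in either class. Glutamatergic nuclei stood at 78.2 and 66.3 CPM for Sema3a, 63.7 and 53.3 CPM for Lgr5 and 21.3 and 33.2 CPM for Rbm20. A Sema3a UMI was found in 50% and 32.1% of glycinergic and 30.6% and 32% of other inhibitory nuclei.

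Of the remaining genes named on the higher side, Mctp2, a calcium-binding membrane protein, had 24 and 88 UMIs in glycinergic against 0 and 4 in other inhibitory nuclei (log2 ratio 3.68, SE 0.67, edgeR adjusted p = 0.039). Col4a5, a basement membrane collagen on the X chromosome, stood at 31.9 and 23.7 CPM against 3.25 and 3.19 CPM (log2 ratio 2.96). Galnt14 (2.18), Insyn2b (2.04), Fstl1 (1.84), Lrtm1 (1.77) and Col26a1 (1.67) completed the 12 highest log2 ratios. Of these 12 genes, only Lamp5 and Lrtm1 were also called higher against glutamatergic nuclei. Lrtm1 lies within Cacna2d3 on the opposite strand, and both were called.

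**Figure D3:**
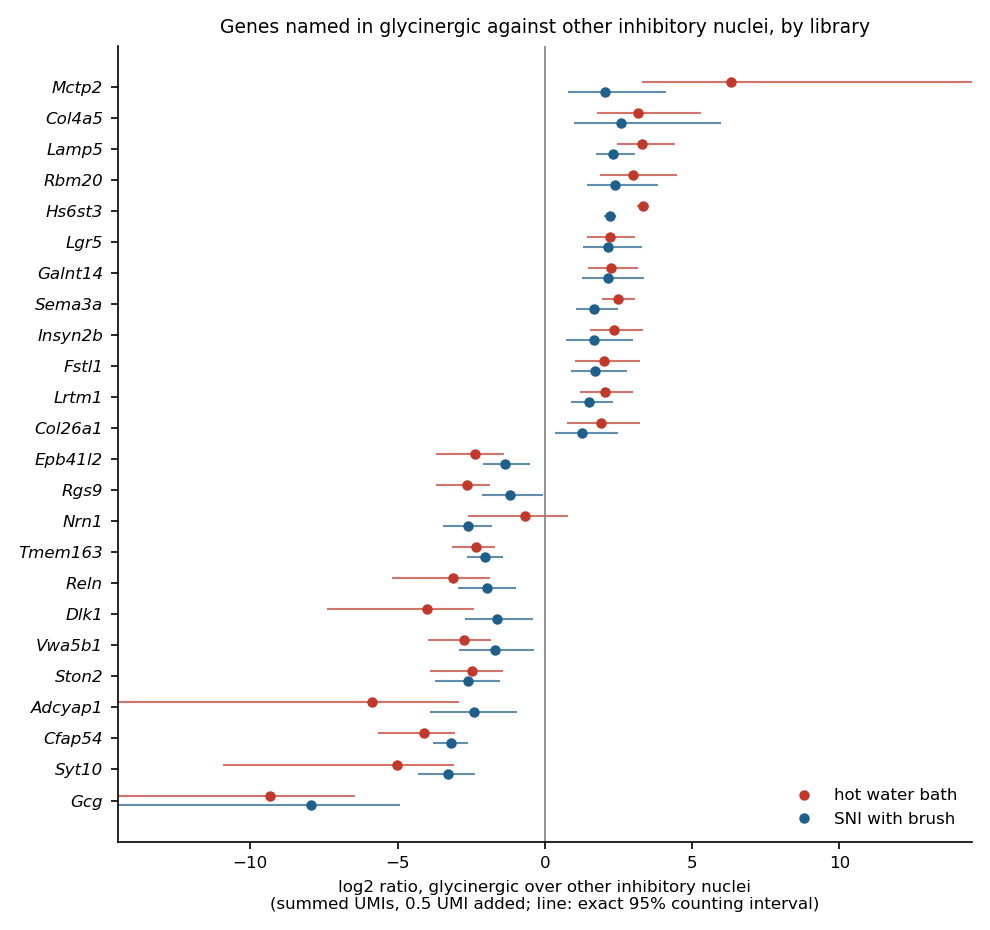
Log2 ratio of glycinergic over other inhibitory nuclei (horizontal axis) for the 24 genes named by the rule, with 1 point for each library and lines for exact 95% counting intervals. Points of both libraries lie on the same side of 0 for every gene, as the naming rule requires. The hot water bath interval of Nrn1, from -2.60 to 0.78, crosses 0.

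On the lower side, Gcg was found in a minority of other inhibitory nuclei. Gcg, the proglucagon gene, had 0 UMIs in glycinergic nuclei of both libraries and 528 and 25 in other inhibitory nuclei, in 14 and 1 nuclei. Against a floor of 3 counts in the glycinergic nuclei of each library, this is at least 107-fold lower after the hot water bath and at least 39.8-fold lower with SNI with brush. Adcyap1, which codes for the peptide PACAP, had 0 and 9 UMIs against 47 and 10 (log2 ratio -3.31, SE 0.58, edgeR adjusted p = 0.031). Nuclei with at least 5 Gcg UMIs were 14 of the 36 hot water bath and 1 of the 25 SNI with brush other inhibitory nuclei, and nuclei with at least 2 Penk UMIs were 22 and 4, so the 2 comparison sets differed in make-up.

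Tmem163, a zinc transporter of vesicles, was lower against both other classes. It stood at 25.3 and 16.4 CPM in glycinergic nuclei, 132 and 67.0 CPM in other inhibitory nuclei and 271 and 228 CPM in glutamatergic nuclei. The log2 ratio was -2.27 over other inhibitory (SE 0.27, edgeR adjusted p = 0.0009) and -3.69 over glutamatergic nuclei (SE 0.25, edgeR adjusted p = 1.3e-06). Cfap54, a gene of motile cilia, stood at 7.98 and 12.7 CPM against 148 and 116 CPM in other inhibitory nuclei (log2 ratio -3.49, SE 0.28, edgeR adjusted p = 1.8e-05). It was no longer called without the nuclei with 5 or more Gcg UMIs. The call was also lost when other inhibitory nuclei needed at least 10 inhibitory transmitter UMIs. The log2 ratio of Cfap54 lay between -3.58 and -2.29 over the alternatives. Syt10 (-3.71), Ston2 (-2.63), Vwa5b1 (-2.49), Dlk1 (-2.45), Reln (-2.30), Nrn1 (-2.14), Rgs9 (-2.09) and Epb41l2 (-1.83) made up the rest of the 12 lowest log2 ratios.

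By list, the fast-spiking channel genes held 3 calls. Of 16 fast-spiking channel genes tested, 3 were higher and 0 lower, with a median log2 ratio of 0.36 beside 0.003 over all genes, while DESeq2 called 1. The potassium channel gene Kcna1 stood at 113 and 180 CPM against 37.3 and 57.4 CPM (log2 ratio 1.60, SE 0.23, edgeR adjusted p = 0.0055). The beta subunit gene Kcnab1 stood at 334 and 236 CPM against 127 and 139 CPM (log2 ratio 1.08). None of the 16 was called against glutamatergic nuclei (4 at an unadjusted p under 0.05 and 0 by DESeq2), where Kcna1 stood at 66.7 and 149 CPM. In the synaptic vesicle list 1 of 25 was called, Syt2, the calcium sensor of fast release (214 and 275 CPM against 89.3 and 126 CPM, log2 ratio 1.18).

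Glra1, the adult alpha subunit of the glycine receptor, was the 1 called gene of the 7 tested in the glycine receptor and scaffold list. It stood at 204 and 259 CPM in glycinergic nuclei against 99.0 and 131 CPM in other inhibitory nuclei (log2 ratio 1.01, SE 0.20, edgeR adjusted p = 0.036), and at 153 and 220 CPM in glutamatergic nuclei, against which it was not called. The beta subunit gene Glrb stood at 190 and 214 CPM against 183 and 171 CPM, and the scaffold gene Gphn had a log2 ratio of 0.30 (edgeR adjusted p = 0.76). None of 15 GABA receptor, 23 glutamate receptor, 8 neurofilament, 9 perineuronal net, 4 opioid receptor and 13 monoamine receptor genes was called by edgeR. At an unadjusted p under 0.05 the counts were 4, 3, 3, 3, 2 and 2, and DESeq2 called 1 opioid receptor gene and none in the other lists. Oprm1, the mu opioid receptor gene, stood at 57.2 and 57.4 CPM against 257 and 121 CPM (log2 ratio -1.66, edgeR adjusted p = 0.087). In the serotonergic list Ddc was lower, with 0 and 6 UMIs against 42 and 13.

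Of 31 genes called here that were named or on a list, 5 (Hs6st3, Lgr5, Sema3a, Gcg and Tmem163) were called under every alternative that kept the library term and gave them a value. That was 11 alternatives for Gcg and 12 for the rest of the 5. Of the 31 genes, 3 were lost under 1 alternative and 23 under more. Kcna1, Syt2, Glra1 and Lamp5 were among those lost when nuclei with 5 or more Gcg UMIs left the comparison set. Over all alternatives their log2 ratios kept their sign, between 1.33 and 1.67 for Kcna1, 0.84 and 1.34 for Syt2, 0.83 and 1.10 for Glra1 and 2.14 and 3.26 for Lamp5. Adcyap1 and Cfap54 were also lost without those Gcg nuclei. Adcyap1, Cfap54 and Reln were lost when other inhibitory nuclei needed at least 10 inhibitory transmitter UMIs. Of the other inhibitory nuclei, 14 of 36 and 7 of 25 held fewer.

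The comparison with excitatory nuclei asked how glycinergic nuclei differ from the glutamatergic nuclei of the same libraries. Of the 16789 genes, 23 (0.137%) were higher and 48 (0.286%) lower in glycinergic nuclei (edgeR, adjusted p under 0.05). The higher side included the lineage factors Pax8, Gata3 and Lhx5, the membrane gene Lamp5 and the synaptic genes Cacna2d3 and Nrxn3. The lower side held the listed excitatory lineage factors Lhx9, Prdm6 and Shox2 with Reln, Nrn1, Calcr and Bdnf.

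Pax8 (ENSMUSG00000026976, chr2:24420560-24475599), a paired box factor of dorsal inhibitory neurons, was close to absent from glutamatergic nuclei. Glycinergic nuclei held 28 and 130 UMIs, 37.3 and 43.4 CPM, and glutamatergic nuclei 1 and 2. The log2 ratio was 7.30 (SE 0.75, edgeR adjusted p = 0.0032), with within-library values of 8.01 (5.97 to 13.9) and 6.63 (5.07 to 10.0). Pax8 RNA overlaps Gm13415, as above. Gata3, a V2b factor, had 3 and 54 UMIs against 7 and 4 (log2 ratio 3.71, SE 0.53, edgeR adjusted p = 0.0031), and its hot water bath ratio of 2.66 had an interval from -0.04 to 4.67. Lhx5, a LIM factor of inhibitory lineages, stood at 7.98 and 12.0 CPM against 1.18 and 1.41 CPM (log2 ratio 2.79, SE 0.55, edgeR adjusted p = 0.036).

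These 3 were the called members of 25 tested inhibitory lineage factors, whose median log2 ratio was 0.87 beside -0.03 over all genes. Pax2, at 71.8 and 82.4 CPM in glycinergic against 0.490 and 3.69 CPM in glutamatergic nuclei, had a log2 ratio of 5.34 that was not called (edgeR adjusted p = 0.26). Against other inhibitory nuclei the same list had 0 edgeR calls among 20 tested, 9 at an unadjusted p under 0.05 and 1 DESeq2 call. There Pax8 had a log2 ratio of 3.26 (edgeR adjusted p = 0.13) and Pax2 2.38 (0.51), and Gata2 (-2.71), Tal1 (-1.73) and Gata3 (-1.71) had negative log2 ratios that were not called.

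Synaptic genes on the higher side included some of the most abundant. Cacna2d3, a calcium channel subunit, stood at 901 and 993 CPM against 205 and 293 CPM in glutamatergic nuclei (log2 ratio 1.89, SE 0.23, edgeR adjusted p = 0.00091). Nrxn3, a presynaptic adhesion receptor, was present in all 98 glycinergic nuclei at 8865 and 6778 CPM against 2729 and 2114 CPM in glutamatergic and 10958 and 5970 CPM in other inhibitory nuclei. Cadps2, a factor for dense-core vesicle release, stood at 165 and 90.8 CPM against 49.0 and 41.0 CPM (log2 ratio 1.37). Serpinb1b (2.66), Klhl14 (2.61), Lrtm1 (2.05) and Tox3 (1.74) were also among the 12 highest.

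On the lower side, 3 excitatory lineage factors were called. Prdm6 had 0 and 1 UMIs in glycinergic against 346 and 56 in glutamatergic nuclei (log2 ratio -5.67, SE 0.70, edgeR adjusted p = 0.0014), and its SNI with brush ratio had a counting interval from -10.21 to -2.35. Lhx9 had 0 and 0 against 78 and 32, which the floor of 3 counts per library makes at least 1.92-fold and 5.62-fold lower. C1ql4, a secreted synaptic organizer, had 0 and 0 against 176 and 62, at least 4.33-fold and 10.9-fold lower by the same floor. Shox2, a V2a-type factor, had 1 and 1 against 172 and 74, with within-library log2 ratios of -3.08 (-8.98 to -1.17) and -4.71 (-10.61 to -2.76). Of 18 excitatory lineage factors tested, 0 were higher and 3 lower, and the median log2 ratio was -3.43, or -2.08 with the 3 genes at 0 set to the weaker of their 2 bounds. Ebf1, which was counted in this list, was not called: it stood at 63.9 and 244 CPM against 445 and 523 CPM and was found with at least 2 UMIs in 54 of the 98 glycinergic nuclei, Ebf3 in 22 and Ebf2 in 11.

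Reln, a secreted matrix protein, stood at 5.32 and 7.34 CPM in glycinergic against 352 and 160 CPM in glutamatergic nuclei (log2 ratio -4.98, SE 0.30, edgeR adjusted p = 8.9e-07). Nrn1, an activity-related surface protein, stood at 6.65 and 8.01 CPM against 56.5 and 162 CPM (log2 ratio -4.17, SE 0.30, edgeR adjusted p = 2.1e-06). Bdnf, the neurotrophin, stood at 12.0 and 5.34 CPM against 79.9 and 45.7 CPM (log2 ratio -3.02, SE 0.27). Bdnf and Nr4a2 (-3.00) were the 2 lower genes among 15 tested immediate early genes, beside 0.286% lower over all genes, and none was higher. In this list 4 genes had an unadjusted p under 0.05. DESeq2 called 1 gene of the list and did not call Nr4a2. Among 27 neuropeptide genes, Tac2 (0 and 1 UMIs in glycinergic nuclei, SNI with brush log2 ratio -4.55, -10.44 to -2.59) and Adcyap1 (-3.27) were lower and none was higher. Calcr had 0 and 2 UMIs in glycinergic nuclei, with an SNI with brush log2 ratio of -4.68 (-8.06 to -3.11), and Onecut3 had 2 and 1, with within-library ratios of -2.56 and -3.79. Chst8 (-3.73), Creb5 (-3.65) and Adamts2 (-3.56) completed the 12 lowest, and Onecut2 (-1.71) was also called.

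**Figure D4:**
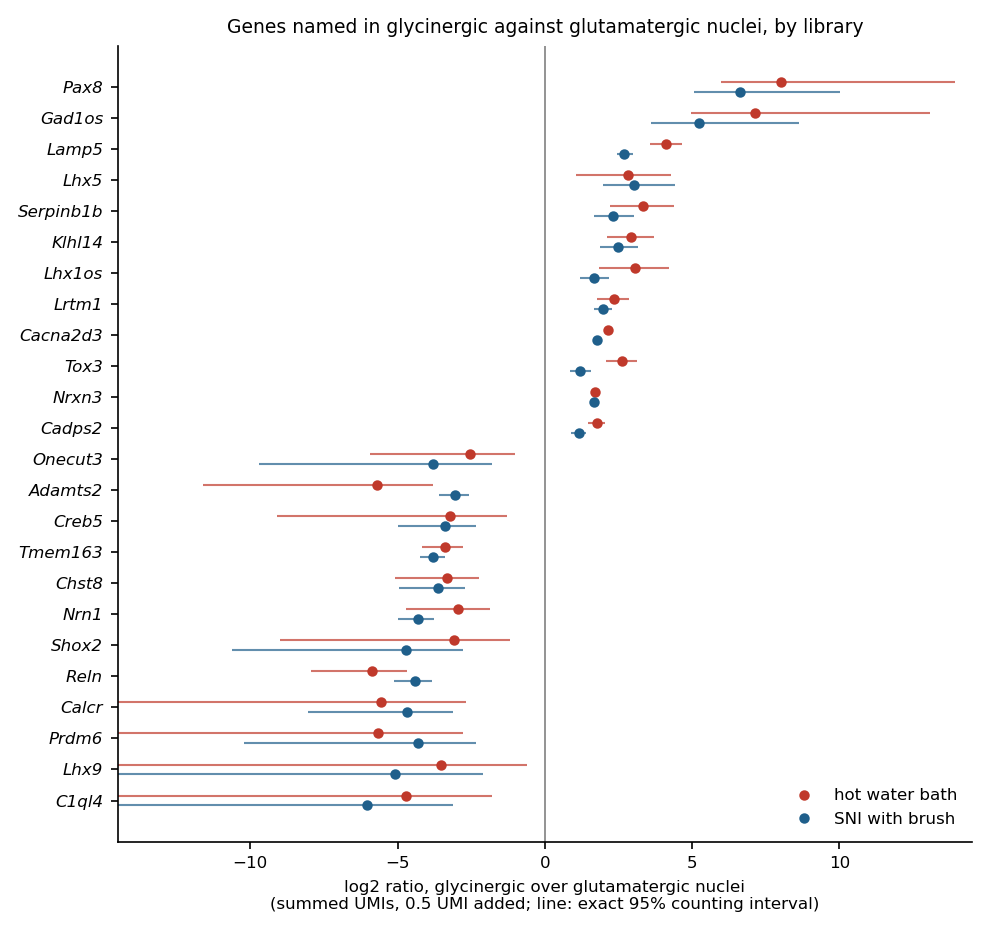
Log2 ratio of glycinergic over glutamatergic nuclei (horizontal axis) for the 24 genes named by the rule, with 1 point for each library and lines for exact 95% counting intervals, which run off the axis where a sum is 0. No interval crosses 0 for these genes, and Pax8 lies farthest to the right at 8.01 and 6.63.

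The receptor, channel and synapse lists given here held no gene called against glutamatergic nuclei. None of 17 GABA receptor, 8 glycine receptor and scaffold, 24 glutamate receptor, 16 fast-spiking channel, 8 neurofilament, 10 perineuronal net and 25 synaptic vesicle genes was called by edgeR or DESeq2, with 6, 0, 4, 4, 1, 0 and 9 at an unadjusted p under 0.05. Their median log2 ratios lay between -0.28 for GABA receptors and 0.19 for fast-spiking channels. Over all genes tested, 0.423% were called and 5.81% had an unadjusted p under 0.05. With so low a share called, 0 calls in lists of this size do not show that the classes were alike. Of 34 called genes that were named or on a list, 15 were called under every alternative that kept the library term and gave them a value. Among them were Pax8, Lamp5, Cacna2d3, Nrn1, Tmem163, Calcr and Bdnf, with 12 alternatives each. Erich2 and Tac2, also among the 15, had a value under 11 and Gm13415 under 10. Of the 34 genes, 7 were lost under 1 alternative and 12 under more. Reln, Nrxn3 and Lhx5 were among those lost under some alternative, while their log2 ratios lay between -5.16 and -3.92, 1.59 and 1.69, and 2.70 and 2.96. The lineage factors Lhx9, Prdm6, Shox2 and Gata3 were lost when nuclei were thinned to 10000 UMIs. Shox2 was lost under 4 of 12 alternatives, DESeq2 among them, and Lhx9 under 3 of 11.

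In both comparisons 16 genes were called on the same side. Lamp5, Cacna2d3, Lrtm1, Nxph2 and A330015K06Rik were higher in glycinergic nuclei, and Reln, Nrn1, Tmem163, Adcyap1, Dlk1, Maml3, Dnah9, St6galnac5, Tmem200a, Gm2824 and Gm3510 were lower. The comparisons share the glycinergic sums, so they are not independent.

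Markers of other cell types summed to far less than neuron markers in glycinergic nuclei, and their part in these results was not tested. The 8 neuron markers summed to 10008 and 8859 CPM, and every glycinergic nucleus held at least 5127 CPM of them. The 8 astrocyte markers summed to 43.9 and 66.1 CPM, with Gja1 at 0 in the hot water bath library, and the 6 oligodendrocyte markers to 94.5 and 161 CPM. The 4 microglial markers summed to 108 and 72.7 CPM, of which 97.1 and 62.7 CPM was P2ry12, a gene that lies within Med12l on the other strand, and C1qa was at 0 in the hot water bath library. The 6 serotonergic markers summed to 6.65 and 19.0 CPM, and to 253 CPM in the highest SNI with brush glycinergic nucleus. Their sums were 99.8 and 63.8 CPM in other inhibitory nuclei and 35.3 and 23.9 CPM in glutamatergic nuclei. Of these markers, Fev and Slc6a4, which define serotonergic neurons, were at 0 in glycinergic nuclei of both libraries. The 4 choroid plexus markers summed to 5.32 and 243 CPM, nearly all of it Ttr, and Folr1 was at 0 in both libraries.

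Within the 98 glycinergic nuclei, lineage factors were found in different sets of nuclei. Pax2 was found with at least 2 UMIs in 53 nuclei, 11 of 20 (55%, 31.5 to 76.9%) and 42 of 78 (53.8%, 42.2 to 65.2%), with overlapping intervals. By the same measure it was found in 1 of 36 and 6 of 25 other inhibitory nuclei and in 0 of 253 and 5 of 123 glutamatergic nuclei. Pax8 was found in 31 glycinergic nuclei, 7 and 24, and 26 of these held Pax2 as well, which is 83.9% of the Pax8 nuclei and 49.1% of the Pax2 nuclei. Lhx1 was found in 20 nuclei and Foxp2, a factor kept by V1 neurons among others, in 13.

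Gata3 marked a separate set. It was found with at least 2 UMIs in 11 glycinergic nuclei, 1 and 10, and none of the 11 held 2 UMIs of Pax2 or Pax8. In other inhibitory nuclei Gata3 was found in 4 of 36 and 7 of 25. Tal1, its partner in the V2b lineage, was found in 5 glycinergic nuclei. The overlap of the sets rests on nuclei of 1 or 2 pools and on few UMIs, and is given as a description. Lhx5 had a UMI in 6 of 20 hot water bath nuclei (30%, 11.9 to 54.3%) and 25 of 78 SNI with brush nuclei (32.1%, 21.9 to 43.6%), and Sall3 in 1 (5%, 0.13 to 24.9%) and 20 (25.6%, 16.4 to 36.8%). With at least 2 UMIs, Lhx5 was found in 0 and 11 of these nuclei and Sall3 in 0 and 13.

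Broader factors were found in more nuclei. Foxp1 was found in 84, Zfpm2 in 68, Ebf1 in 54, Nr2f2 in 24 and Nfib in 22, and Zfpm2 shares were 70% and 69.2% in the 2 libraries. Ebf1 was found in 8 of 20 and 46 of 78, and Ebf3 in 1 and 21. Of the listed temporal and regional factors, Myt1l was found in all 98, Rora in 94 and Esrrg in 93.

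**Figure D5:**
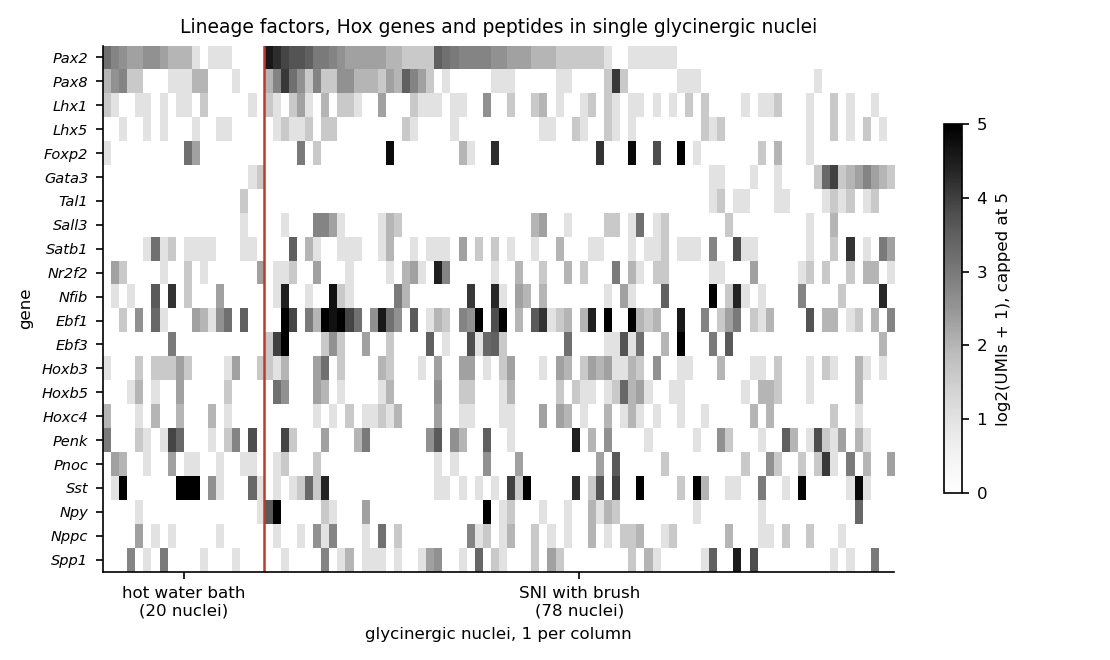
UMIs of lineage factors, Hox genes and peptides (rows) in each of the 98 glycinergic nuclei (columns, ordered within each library by Pax2 and other factors), shaded by log2(UMIs + 1) up to 5. Nuclei with Pax2 lie at the left of each library, most Pax8 falls among them, and the 11 Gata3 nuclei lie at the right with 0 Pax2 UMIs.

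Hox genes mark position along the hindbrain and cord. Without thinning, a UMI of Hox groups 1 to 3 was found in 15 of 20 (75%) and 65 of 78 (83.3%) glycinergic nuclei. The shares for groups 1 to 3 were 63.9% and 44% in other inhibitory and 49.4% and 67.5% in glutamatergic nuclei. A UMI of Hox groups 4 to 8 was found in 10 of 20 (50%, 27.2 to 72.8%) and 52 of 78 (66.7%, 55.1 to 76.9%) glycinergic nuclei. After thinning to 10000 UMIs the shares were 35% and 42.3%. In other inhibitory nuclei the shares were 47.2% and 48.0% (30.6% and 41.7% thinned), and in glutamatergic nuclei 36.4% and 68.3% (16.6% and 42.6% thinned), so with SNI with brush the glutamatergic share was not below the glycinergic one. Summed, these genes stood at 90.5 and 106 CPM in glycinergic nuclei, 40.6 and 81.3 CPM in other inhibitory nuclei and 19.2 and 74.5 CPM in glutamatergic nuclei. None of the 10 genes tested against glutamatergic nuclei was called by edgeR or DESeq2, with 3 at an unadjusted p under 0.05 (median log2 ratio 1.18, positive in both libraries for 9). Hoxb3 was found with at least 2 UMIs in 33 glycinergic nuclei, Hoxb5 in 22 and Hoxc4 in 16, and Hoxb8 in 6.

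No listed peptide was found with at least 2 UMIs in most glycinergic nuclei. Penk, the enkephalin precursor, was found with at least 2 UMIs in 28 nuclei, 7 of 20 (35%, 15.4 to 59.2%) and 21 of 78 (26.9%, 17.5 to 38.2%), against 22 of 36 and 4 of 25 other inhibitory nuclei. Sst, somatostatin, was found in 24 (6 and 18), Pnoc, the nociceptin precursor, in 19 (3 and 16), Nppc, C-type natriuretic peptide, in 17 (1 and 16) and Spp1, osteopontin, in 17 (2 and 15). Npy was found in 0 of 20 hot water bath nuclei and 10 of 78 SNI with brush nuclei (12.8%, 6.32 to 22.3%), and a single UMI or more in 2 (10%, 1.23 to 31.7%) and 17 (21.8%, 13.2 to 32.6%), whose intervals overlap. At least 1 of 7 peptides was found in 67 nuclei and at least 2 in 32. Pvalb, a calcium buffer of fast-firing neurons, was found in 42.

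Between the libraries, glycinergic nuclei of the SNI with brush pool had more genes above than below a 2-fold difference. Of 9254 genes with at least 50 UMIs, 772 (8.34%) were higher by 2-fold or more in that library, 131 (1.42%) were lower by as much, together 9.76%, and the median log2 ratio over all of them was 0.12. With size factors in place of totals the counts were 543 and 212. There is 1 library for each treatment, so these values compare 2 libraries and carry no replicate check. The hot water bath sum was the smaller, at 751584 against 2996695 UMIs, so a gene near 50 UMIs rests on few hot water bath UMIs. The part of counting error in the counts of higher and lower genes was not tested.

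The genes named on the higher side were led by Ttr (log2 ratio 5.31), which had 5.42 and 4.54 in other inhibitory and glutamatergic nuclei. Serpine2, a protease inhibitor, had 0 UMIs in the hot water bath and 64 in the SNI with brush glycinergic nuclei, at least 5.35-fold higher. Its log2 ratio was 3.13 (2.01 to 4.63) in other inhibitory nuclei and -0.74 in glutamatergic nuclei. Nacad had 0 and 53 UMIs, at least 4.43-fold higher. Pde3a, Snhg9, Atp13a5 and Igfbp7 each had 1 UMI in hot water bath glycinergic nuclei, with log2 ratios of 4.10 (2.17 to 9.99), 3.85 (1.91 to 9.75), 3.80 (1.86 to 9.70) and 3.47 (1.52 to 9.37), and Ptprq had 3 UMIs and a ratio of 3.23 (1.86 to 5.74). For Snhg9, Atp13a5 and Ptprq the ratio in glutamatergic nuclei was 3.01, 4.13 and 3.30, so these differences were not limited to glycinergic nuclei. Nor was that of Pde3a, with 2.01 in other inhibitory and 1.63 in glutamatergic nuclei. For Nacad and Igfbp7 the ratios in other inhibitory nuclei were 0.43 (-1.38 to 2.04) and 0.13 (-3.49 to 2.78).

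On the lower side, Plcxd3 stood at 322 and 116 CPM (log2 ratio -1.47, -1.71 to -1.23), with -1.36 in glutamatergic and -0.21 in other inhibitory nuclei. Kcnd3, an A-type potassium channel gene, stood at 251 and 95.4 CPM (-1.40, -1.67 to -1.13), with -0.54 in glutamatergic nuclei. Mid1 (-1.96), Alas2 (-1.87), Spag6l (-1.59), Rec114 (-1.42), Etv5 (-1.38) and Cpq (-1.34) were the others named.

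Nuclear genes of the respiratory chain were higher in SNI with brush glycinergic nuclei as a list. Of 21 measured, 12 were at least 2-fold higher and 0 lower, with a median log2 ratio of 1.199 beside 0.14 over all genes with at least 20 UMIs. Among all 12176 such genes, 1367 were higher and 308 lower by as much. The smaller hot water bath sum limits these counts as well. The list's median log2 ratio of glycinergic over other inhibitory nuclei was 0.75 in the hot water bath and -0.40 in the SNI with brush library. Over glutamatergic nuclei it was 0.87 and 0.33. Cox7c stood at 95.8 and 221 CPM and Cox6c at 86.5 and 232 CPM. Cox6c had log2 ratios of 2.88 in other inhibitory and 1.95 in glutamatergic nuclei. The mitochondrial share of the summed glycinergic UMIs, which these values rest on, was 0.626% and 0.627%, while the median per nucleus was 0.0861% and 0.361%. The part of that difference between nuclei in the list's values was not tested.

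The genes that chose the nuclei are given as values. Slc6a5 had a log2 ratio of 0.38 (0.14 to 0.64), Slc32a1 0.36 (0.01 to 0.74), Gad1 -0.57 (-0.90 to -0.23) and Gad2 -0.49 (-0.73 to -0.23). Among lineage factors, 6 of 15 inhibitory ones were at least 2-fold higher and 0 lower, among them Foxp2 (1.66, 0.90 to 2.65), Gata3 (1.97, 0.55 to 4.50) and Sall3 (3.19, 1.22 to 9.09), whereas Pax2 had 0.19 (-0.23 to 0.65) and Pax8 0.20 (-0.38 to 0.86). Ebf1, Ebf2 and Ebf3 had 1.92, 2.41 and 2.72. Among 11 neuropeptide genes 4 were at least 2-fold higher, including Npy at 2.66 and 54.4 CPM, and 2 lower, Cck at 65.2 and 12.0 CPM and Tac1 at 33.3 and 4.00 CPM. Beside these list counts, 1367 of all 12176 genes with at least 20 UMIs were higher and 308 lower by as much. They share the limit set by the smaller hot water bath sum.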

How the data were processed

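Each sample is a deposited table of raw UMI counts per gene and nucleus, used as counts without change. Per the submitters' processing notes the authors used Cell Ranger 5.0, the mm10 genome and Seurat. Its version and the rule for keeping nuclei are not given in these sources. Counts for 23912 genes were present in 425 of 723 and 288 of 850 listed barcodes. Members and gene lists were chosen with earlier results of these data known, as were the naming rule and the alternatives.

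UMIs were summed over glycinergic, other inhibitory and glutamatergic nuclei of each library, giving 6 sums. Genes with at least 20 UMIs over the sums (16789, without the 11 genes of the nucleus rule) were fitted with edgeR 4.0.16 (TMM, robust quasi-likelihood, library and class as terms) in R 4.3.3. The library term pairs the classes, since classes of a library come from the same pooled animals. P-values were adjusted by Benjamini-Hochberg. Named genes needed an adjusted p under 0.05, the same sign in both libraries, at least 50 UMIs, detection in 10 or more nuclei of the higher class and at most 25% of UMIs from 1 nucleus; predicted gene models were left out, and the 12 highest and lowest log2 ratios were named (8 each way between libraries). List members with at least 20 UMIs were counted; lineage factors and peptides within glycinergic nuclei needed at least 2 UMIs in at least 5 nuclei. Within-library ratios add 0.5 UMI; intervals are exact 95% intervals (Clopper-Pearson, Poisson, or conditional on the summed count) and cover counting error only. Scrublet marked 3 and 2 nuclei as doublets, none of them glycinergic, and none was removed. On simulated counts of 16498 genes with 4-fold changes, 98% of higher and 82% of lower genes were called against other inhibitory nuclei, and 30% and 10% with 2-fold changes. The changed genes, 50 for each change, were drawn only from genes well above the filter of 20 UMIs. The simulated libraries differed only in depth. These shares therefore do not describe genes near the filter or differences between the treatments. Some listed genes are not reported here. Gene positions are from GENCODE vM21. DESeq2 1.42.0 served for alternatives, and scanpy 1.11.5, pandas 2.3.3, scipy 1.17.1 and matplotlib 3.10.9 under Python 3.11.15 for the rest.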

Additional observations from a re-analysis of the deposited data

Results flagged for a closer look

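Several listed genes had opposite differences in the 2 libraries. The genes given are listed genes with a log2 ratio of at least 1 in size in each library, a limit set after the values were seen, and the difference between libraries was not tested. Against other inhibitory nuclei, the log2 ratios of glycinergic nuclei in the hot water bath and SNI with brush libraries were 2.83 and -2.26 for Calb2, 2.82 and -3.25 for Cck, 3.25 and -2.55 for Gal and 4.60 and -1.08 for Sst. In the hot water bath library 1 nucleus held 84.5% of the glycinergic Calb2 UMIs and 81.6% of the Cck UMIs, and in the SNI with brush library 1 nucleus held 71.9% of the Sst UMIs of other inhibitory nuclei.

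Against glutamatergic nuclei the same pattern was seen for Cck (1.90 and -1.75), Gal (4.53 and -2.51) and Necab2 (1.56 and -1.03). In hot water bath glycinergic nuclei Gal rested on 14 UMIs and Necab2 on 12.

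Outside the 3 classes, 6 SNI with brush nuclei held at least 2 Slc6a5 UMIs, 5 of them with mixed transmitter transcripts and 1 above the limit on liver genes, against 1 nucleus in the hot water bath library. They entered no comparison.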

How the results depend on the processing

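Counts of called genes depended on the filter and the fit. Against other inhibitory nuclei, 39 higher and 39 lower genes became 226 and 273 without a filter on low counts, 4 and 5 with at least 100 UMIs, and 168 and 138 with nuclei of at most 0.5% mitochondrial UMIs. The lower genes became 73 with only the 2 classes compared in the fit, 22 at a transmitter share of 90% and 19 without nuclei of 5 or more Gcg UMIs, an alternative chosen after seeing the data, as was that on inhibitory UMIs. Against glutamatergic nuclei, 23 and 48 became 96 and 190 without a filter, 10 and 23 with at least 100 UMIs, 76 and 185 with only the 2 classes compared, and 51 and 97 with the mitochondrial limit. Without the replicate block (the library term), 0 and 0 genes were called against other inhibitory nuclei (877 at an unadjusted p under 0.05) and 2 and 0 against glutamatergic nuclei (394). DESeq2 called 34 and 40, and 30 and 36. Between libraries, 772 higher and 131 lower genes became 1367 and 308 with at least 20 UMIs, and 212 were lower with size factors, which shift the median by -0.156. The causes were not tested. The glycinergic share stayed between 3.70 and 4.94% and between 25 and 29.2% under the alternatives run. No named gene changed sign under any of them; list medians near 0 did. Leaving out 1 library leaves a ratio with no test: of 65 gene values, 41 and 33 moved by more than 1 SE without the SNI with brush and the hot water bath library. The 20 hot water bath glycinergic nuclei limit all per-library shares.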
